A study of Mus musculus with 24 samples.

Results

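The genes described here are 10 components of the mitotic spindle, 8 kinesin motors (*Kif11*, *Kif23*, *Kif20a*, *Kif20b*, *Kif18a*, *Kif2c*, *Kif4* and *Kif15*) and 2 spindle factors that are not kinesins (*Tpx2* and *Numa1*). They were taken by symbol from the 54658 genes of the deposited expression table, and all 10 had reads in each of the 24 libraries. RNA was sequenced from the embryonic mouse cortex (dorsal telencephalon) and from cultured cortical progenitors, to ask how loss of *Cep135*, a centriole gene mutated in primary microcephaly, changes gene expression. Embryos came from matings of *Cep135* (+/-) parents. Mutants were *Cep135* (-/-), homozygous for the Δ8 allele in every cell, and controls were *Cep135* (+/+). At E11.5, cortices came from mutants A, B and C and from the control embryos D, E and F. The E14.5 cortices were those of mutants 1, 2 and 6 and of controls 3, 4 and 5, and progenitors of the same 6 embryos were cultured for 12 hours and for 24 hours as they began to form neurospheres. Each of the 8 groups therefore held 3 libraries, 1 per embryo, with no treatment other than the culture itself. Values are normalized read counts, that is, reads per gene divided by 1 size factor per library, read at the 3′ ends of transcripts.

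The spindle is a bipolar array of microtubules that pulls sister chromatids apart, and it is built largely by motors that slide, carry or shorten microtubules. In the developing cortex its poles are organised by centrosomes, and progenitors in the ventricular zone depend on it for each division. *Kif11* slides antiparallel microtubules apart to separate the poles, and *Kif15* is the motor that can keep a bipolar spindle when *Kif11* is inhibited. *Kif18a* dampens the oscillations of aligned chromosomes, *Kif2c* removes faulty attachments by depolymerizing microtubule ends, and *Kif4* is a motor of chromosome arms and of the central spindle. *Kif23*, *Kif20a* and *Kif20b* act late, at the midzone and midbody, where the cells part. *Tpx2* nucleates microtubules near chromatin and activates the Aurora A kinase, and *Numa1* ties dynein to the spindle poles and to the cell cortex. Most such genes are transcribed in G2 and M phase, and many of their promoters hold the cell cycle genes homology region, whose core letters are TTTGAA.

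Promoters of 8 of the 10 genes were matched by symbol among the 32851 RefSeq promoters of mouse build GRCm38.p6, each running from 250 bases before to 50 bases after a transcription start. The other two genes are *Kif20a* and *Tpx2*. TTTGAA was searched on both strands and was found in 6 of the 8, against 17.9% of all promoters. Positions below are those of the first base of the match, counted along the gene's own strand from 1 at the start, with negative numbers before it. In *Kif23* the letters began at 3, in *Kif20b* at 8 and again at 14, and in *Kif4* at 20, all on the gene's strand. In *Kif11* they began at -19 on the opposite strand, in *Kif15* at -19 on the opposite strand and at -234 on its own, and in *Kif2c* at -103 on the opposite strand. *Kif18a* and *Numa1* had no match in these windows. A single start per gene was searched, and the window of *Numa1* does not reach the 5′ end of the annotated gene. CCAAT, searched the same way, was in 3 of the 8 (*Kif11*, *Kif23* and *Kif4*), against 37.4% of all promoters. TTGGCGC, the core of an E2F-type site, was in 2 of the 8 (*Kif18a* and *Kif15*), against 2.45% of all promoters. It overlapped neither of the other motifs. A match is a description of letters and no evidence of binding. The stretches from 120 bases before to 30 bases after the start are shown for *Kif23* and *Kif15*, kinesins among those that fell most between the ages, for *Kif11*, which fell in culture, for *Kif4*, and for *Numa1*, which changed least between the ages. Capitals mark TTTGAA or CCAAT on either strand, so that TTCAAA and ATTGG are their matches on the opposite strand.
Kif23 (chr9:61946770-61946919, minus strand): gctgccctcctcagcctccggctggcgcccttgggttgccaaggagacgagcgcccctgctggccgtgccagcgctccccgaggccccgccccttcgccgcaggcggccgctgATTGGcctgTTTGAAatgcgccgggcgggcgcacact
Kif15 (chr9:122950961-122951110, plus strand): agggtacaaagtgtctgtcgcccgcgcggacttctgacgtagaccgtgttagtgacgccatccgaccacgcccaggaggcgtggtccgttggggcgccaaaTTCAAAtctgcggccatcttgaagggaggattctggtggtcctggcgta
Kif11 (chr19:37376262-37376411, plus strand): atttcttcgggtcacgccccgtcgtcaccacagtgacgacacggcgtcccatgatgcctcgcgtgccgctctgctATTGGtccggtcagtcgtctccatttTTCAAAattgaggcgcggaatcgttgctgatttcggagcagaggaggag
Kif4 (chrX:100625945-100626094, plus strand): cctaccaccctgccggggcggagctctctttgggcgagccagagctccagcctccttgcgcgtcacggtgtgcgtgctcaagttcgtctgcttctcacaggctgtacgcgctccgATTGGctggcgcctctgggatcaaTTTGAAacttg
Numa1 (chr7:101969723-101969872, plus strand): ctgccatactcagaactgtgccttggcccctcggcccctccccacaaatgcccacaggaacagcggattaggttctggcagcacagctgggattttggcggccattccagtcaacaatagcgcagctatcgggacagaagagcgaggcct

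The genes lie apart in the genome. In the GENCODE vM21 annotation of GRCm38, *Kif11* (ENSMUSG00000012443) spans chr19:37376403-37421859 and *Kif20b* (ENSMUSG00000024795) chr19:34922361-34975745, both on the plus strand. *Kif23* (ENSMUSG00000032254) spans chr9:61915905-61946774 on the minus strand and *Kif15* (ENSMUSG00000036768) chr9:122951046-123018733 on the plus strand. *Kif18a* (ENSMUSG00000027115) and *Tpx2* (ENSMUSG00000027469) are on the plus strand of chromosome 2, at chr2:109280738-109341747 and chr2:152847964-152895321. *Kif2c* (ENSMUSG00000028678) is at chr4:117159639-117182639, minus strand, *Numa1* (ENSMUSG00000066306) at chr7:101934111-102014964, plus strand, *Kif20a* (ENSMUSG00000003779) on chromosome 18 and *Kif4* (ENSMUSG00000034311) at chrX:100625737-100727214, plus strand. The RefSeq starts used above for *Kif2c*, *Numa1*, *Kif4* and *Kif15* lie inside these spans and not at their ends. The searched window of *Kif15* covers the 5′ end of its span. Those of *Kif2c* (117178723 to 117179022), *Numa1* (101969593 to 101969892) and *Kif4* (100625815 to 100626114) do not, so that these 5′ ends were not searched. *Kif20a* and *Numa1* overlap genes of the opposite strand, which the stranded counting keeps apart. A processed pseudogene of *Kif4*, *Kif4-ps*, held at most 2 reads in any library.

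The libraries held 4732781 to 11645213 reads on genes, and the 10 genes held between 20 and 2867 reads in each. The targeted gene was read in every library, but reads from its 3′ end lie outside the deleted part and check neither genotype nor label. *Cep135* was at 293, 375 and 318 in E11.5 controls D, E and F and at 246, 336 and 329 in mutants A, B and C. At E14.5 it was at 171, 176 and 271 in controls 3, 4 and 5 and at 224, 173 and 283 in mutants 1, 2 and 6. After 12 hours the controls had 291, 336 and 201 and the mutants 260.3, 213 and 262, and after 24 hours 217, 276 and 185 against 193, 265 and 295. Mutants and controls overlapped at every stage. Of 10 apical progenitor markers and 10 markers of postmitotic neurons, none was at 0 in all cortices of either age. Liver transcripts were also read, at a summed 77.6 to 924 over 11 genes in E11.5 cortices and 689 to 7354 in E14.5 cortices. *Gm42418*, a transcript with ribosomal RNA sequence, took 6.11% to 34.8% of the normalized read counts. By *Xist* and Y chromosome transcripts, the E14.5 controls were all male, mutants 1 and 2 female and mutant 6 male. For the cortex of mutant 6 the label fields disagree on age, and E14.5 was used here. Mutants B and C carry 1 prefix in their titles and another in their descriptions.

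The mean of each of the 10 genes over both genotypes was highest in E11.5 cortices and lowest after 24 hours of culture. *Tpx2*, for example, was at 1784 ± 71.8 (SD, n = 6) in E11.5 cortices, 1016 ± 143 in E14.5 cortices, 770.3 ± 88.8 after 12 hours and 683 ± 91.3 after 24 hours. *Kif11* was at 633 ± 39.6, 422 ± 73.5, 389 ± 62.1 and 225 ± 29.1 at the same stages. *Kif20b* and *Kif18a* did not fall at every step between these ends. Their 12-hour means (660 ± 43.1 and 216 ± 55.0) were above their E14.5 means (614 ± 155 and 180 ± 29.3), a rise that did not exceed the spread. *Numa1* had the flattest course, at 978 ± 36.8, 855 ± 58.9, 806 ± 140 and 797 ± 117. The tests between neighbouring stages follow.

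**Figure D1:**
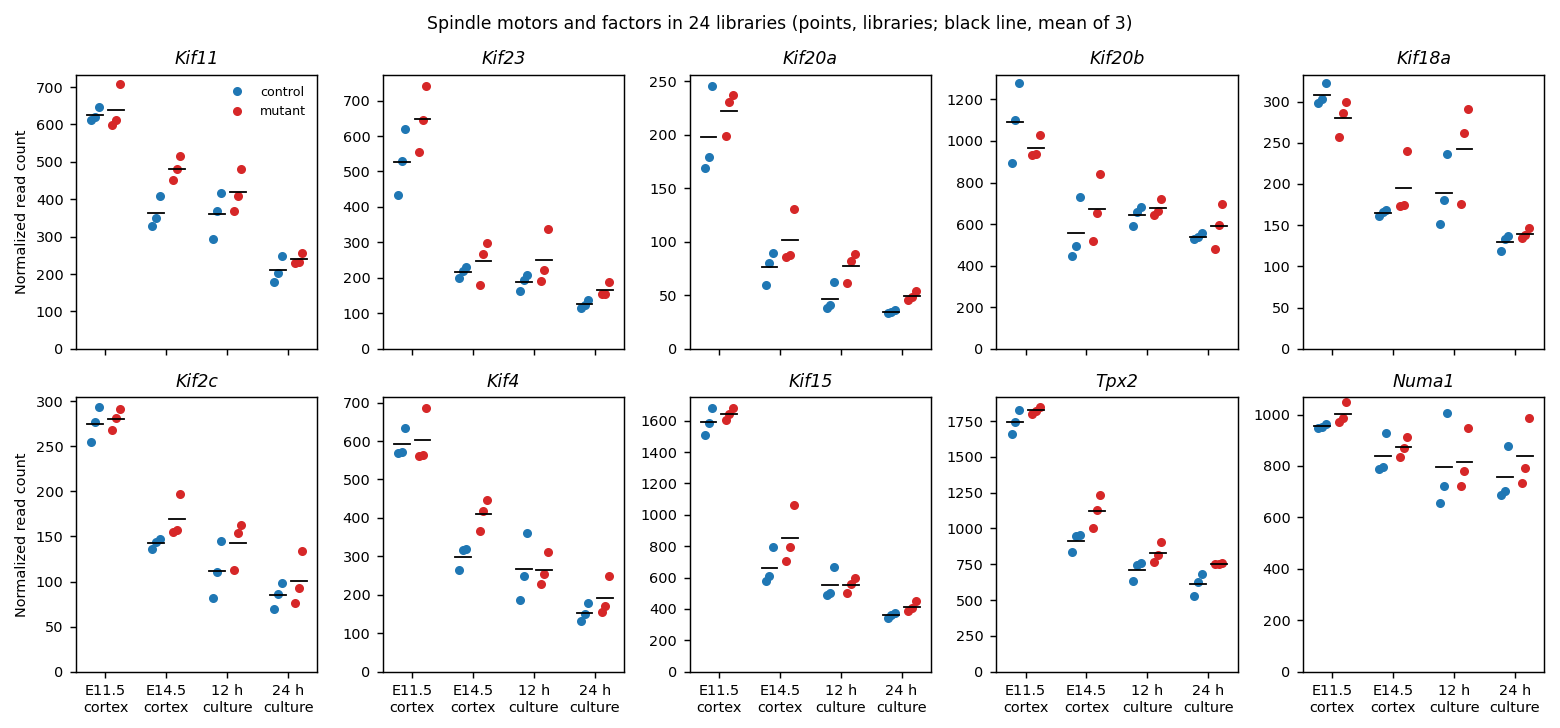
Normalized read counts (vertical axes, each from 0) of the 10 genes at 4 stages (horizontal axes), with controls in blue, mutants in red, 1 point per library and a black line at the mean of 3. The E11.5 points of each gene lie above all its E14.5 points, and *Numa1* shows the smallest step between them.

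Between E11.5 and E14.5 all 10 genes fell, with genotype as a term in the model. For each of the 10, all 6 E14.5 cortices lay below all 6 E11.5 cortices. Over all genes tested, 29.3% were called lower at this comparison and 14.9% had every E14.5 cortex below every E11.5 cortex (limma on log2 of the normalized read count plus 1, Benjamini-Hochberg adjusted p under 0.05, 13650 genes). The median log2 fold change was -0.80 over the 10 genes and -0.08 over all genes. In these bulk samples, fewer dividing cells and less RNA per dividing cell cannot be told apart. Embryos of the different ages also carry different title prefixes, so that age and whatever the prefix marks cannot be told apart.

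Among motors of the midzone, *Kif23* and *Kif20a* had the widest changes of the 10 genes. *Kif23*, whose product bundles midzone microtubules for cytokinesis, ranged from 434 to 742 with a median of 587 in E11.5 cortices and from 179.5 to 298 with a median of 225 in E14.5 cortices. It was 2.52-fold lower at E14.5 (log2 fold change -1.33, SE 0.13, adjusted p = 3.10e-07). *Kif20a*, which brings the chromosomal passenger complex to the midzone, went from a median of 215 (169 to 246) to a median of 87.1 (60.0 to 131). Its fold was 2.38 (log2 fold change -1.25, SE 0.15, adjusted p = 2.49e-06). *Kif20b*, the midbody motor, fell 1.70-fold, from a median of 982 (895 to 1278) to 585 (445 to 843), with an adjusted p of 0.000348. The highest E14.5 value of *Kif20b*, in mutant 6, was just below the lowest E11.5 value, in control D.

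Of the motors that set and hold the poles, *Kif15* fell 2.18-fold (log2 fold change -1.12, SE 0.11, adjusted p = 4.14e-07), from a median of 1622 (1512 to 1682) to 750.1 (576 to 1060.2). *Kif11* fell 1.52-fold, from a median of 616 (599 to 707) to 429.9 (328 to 515), with an adjusted p of 6.38e-05. The 95% confidence intervals of these log2 fold changes, -1.36 to -0.89 for *Kif15* and -0.80 to -0.40 for *Kif11*, did not overlap. The chromosome motors lay between. *Kif2c* fell 1.79-fold (adjusted p = 2.01e-06), *Kif4* 1.70-fold (adjusted p = 1.26e-05) and *Kif18a* 1.64-fold (adjusted p = 3.85e-05). *Kif2c* was at 255 to 293 at E11.5 and at 136 to 197 at E14.5.

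*Tpx2* fell 1.77-fold (log2 fold change -0.82, SE 0.08, adjusted p = 3.25e-07), from a median of 1811 (1657 to 1849) to 980.0 (833 to 1235). *Numa1* had the smallest change, 1.14-fold lower with a log2 fold change of -0.19 (SE 0.07, adjusted p = 0.0282). Its values were 946 to 1047 with a median of 967 at E11.5 and 789.8 to 928 with a median of 852 at E14.5, so that the groups did not overlap although the step was small. The call of *Numa1* did not hold with edgeR (adjusted p = 0.138), DESeq2 (0.0724) or without the filter on low values (0.0754), nor with E11.5 control D, E11.5 mutant B, E14.5 control 3, E14.5 control 4 or E14.5 mutant 1 left out, where the adjusted p was 0.0507 to 0.0645. The other 9 genes kept their call under every alternative run.

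Other genes of mitotic motors and spindle assembly went the same way in most cases. Of 42 such genes, 41 were tested, 28 fell and 3 rose from E11.5 to E14.5, with a median log2 fold change of -0.67. Over all genes tested, 29.3% were called lower and 23.8% higher. The smallest p-values among those that fell belonged to *Tacc3* (log2 fold change -0.998), which stabilizes spindle microtubules, to the mitotic kinases *Plk1* (2.35-fold) and *Aurka* (2.28-fold), and to *Spag5* (1.82-fold). *Clasp2*, a microtubule plus-end protein that also serves in neurites, had the smallest p of the list and rose 2.05-fold. Of 17 regulators of G2 and M phase, 16 fell. Markers of other cell states moved with age as well. Of 10 apical progenitor markers 8 fell and 2 rose, and their summed level was 15602 to 19612 at E11.5 and 9945 to 12163 at E14.5. Of 10 markers of postmitotic neurons 9 rose, and their sum was 9537 to 13927 at E11.5 and 29683 to 39866 at E14.5. No marker of either list was at 0 in all cortices of an age, and their part in the fall of the spindle genes was not tested.

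**Figure D2:**
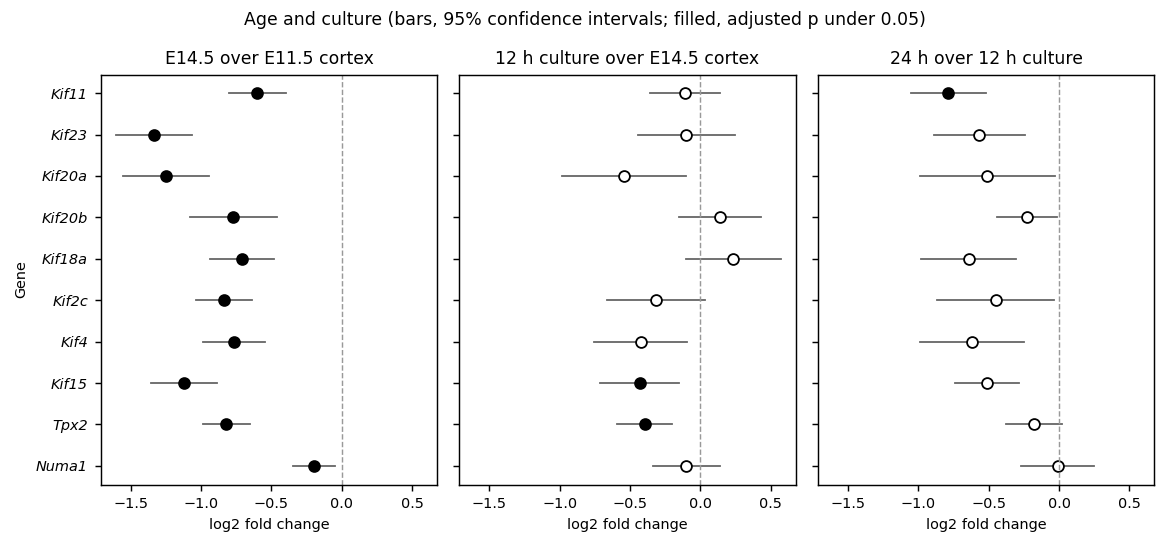
Log2 fold changes (horizontal axes) of the 10 genes (vertical axis) between ages and along culture, with points for the estimates, bars for 95% confidence intervals and filled points for an adjusted p under 0.05. All 10 points lie below 0 in the left panel, while *Kif15* and *Tpx2* are filled in the middle panel and *Kif11* in the right one.

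In E11.5 cortices the mutants did not differ detectably from controls in any of the 10 genes. None passed the test (limma, 0 of 10 with an unadjusted p under 0.05, and 0 calls by edgeR or DESeq2), against 0.0149% of all genes tested and 7.39% at the unadjusted threshold. The log2 fold changes of mutant over control ran from -0.16 (*Kif20b*) to 0.30 (*Kif23*), with a median of 0.04. *Kif11* was at 621, 612 and 647 in controls D, E and F and at 612, 707 and 599 in mutants A, B and C. Its 95% confidence interval, 0.86-fold to 1.20-fold, bounds what these embryos could show. *Kif15* was at 1512, 1586 and 1682 in controls and at 1640, 1603 and 1681 in mutants, with an interval of 0.89-fold to 1.19-fold. *Kif23* was less even, at 434, 619 and 528.5 in controls against 644, 555 and 742 in mutants, and its interval reached 1.56-fold. Mutants lay above all controls for 1 of the 10 genes, *Numa1* (953, 963 and 946 against 985, 1047 and 971), which compares with 7.16% of all genes. No gene of the 10 had its mutants below all controls, as 6.11% of all genes did.

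In E14.5 cortices the estimates of all 10 genes were above 0, but none passed the test. The log2 fold changes were 0.06 (*Numa1*) to 0.45 (*Kif4*) with a median of 0.29, against 0.01 over all genes, and the smallest adjusted p was 0.455. Calls were 0 of 10 with limma, edgeR and DESeq2, against 0.0736% of all genes tested with limma. At an unadjusted p under 0.05 limma gave 3 of 10 (*Kif4*, *Kif11* and *Tpx2*), against 9.10% of all genes. All 3 mutants lay above all 3 controls for 5 of the 10 genes (*Kif11*, *Kif18a*, *Kif2c*, *Kif4* and *Tpx2*), against 7.02% of all genes. Genes of the cell cycle vary together between embryos, so these 5 are not independent observations.

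*Kif4*, the motor of chromosome arms, was at 316, 264 and 318 in controls 3, 4 and 5 and at 365, 447 and 418 in mutants 1, 2 and 6. The lowest mutant was thus above the highest control, and the estimate was 1.37-fold higher in mutants (95% confidence interval 1.10 to 1.71, unadjusted p = 0.00977, adjusted p = 0.455). *Kif4* is on the X chromosome, and the estimates with a term for sex follow in the next paragraph. *Kif11* was at 409, 328 and 349.6 in controls and at 515, 450.4 and 480.0 in mutants, again with no overlap. Its estimate was 1.33-fold (1.08 to 1.65, unadjusted p = 0.0122, adjusted p = 0.471). *Tpx2* was at 833, 945 and 956 in controls and at 1126, 1004 and 1235 in mutants, 1.23-fold higher in the estimate (1.01 to 1.50, unadjusted p = 0.0432, adjusted p = 0.536).

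Mutant 6 carried the highest value of 7 of these genes at E14.5. In *Kif18a* the controls held 161, 168 and 166.5, mutants 1 and 2 held 173 and 174, and mutant 6 held 239.6. In *Kif2c* the controls held 144, 147 and 136, mutants 1 and 2 held 155 and 157, and mutant 6 held 197. Leaving mutant 6 out lowered the log2 fold change of *Kif18a* from 0.22 to 0.07 and that of *Kif15* from 0.36 to 0.19. The estimates of *Kif11* (0.35 to 0.51) and *Kif4* (0.36 to 0.53) moved less over all alternatives. With a term for sex the estimates of all 10 genes stayed above 0, at 0.13 to 0.78. All controls and only mutant 6 among the mutants were male, so that this term sets mutant 6 alone against the controls. These estimates rest on that embryo, which was the highest in 7 genes, and cannot show how far sex matters. Markers of postmitotic neurons also differed, with a summed level of 37179 to 39866 in controls and 29683 to 30502 in mutants and 1 of 10 called lower. Microglial markers summed to 431 to 492 in controls and 810 to 986 in mutants, with 7 of 7 estimates above 0, 5 with an unadjusted p under 0.05 and *Cx3cr1*, a chemokine receptor of microglia, called higher (2.17-fold). Apical progenitor markers summed to 9945 to 10754 in controls and 10429 to 12163 in mutants. Regulators of G2 and M phase summed to 12979 to 15859 in controls and 16444 to 20519 in mutants, without overlap. Of 17 such regulators 14 had estimates above 0, and 0 were called. The part of these markers and regulators in the spindle gene values was not tested.

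**Figure D3:**
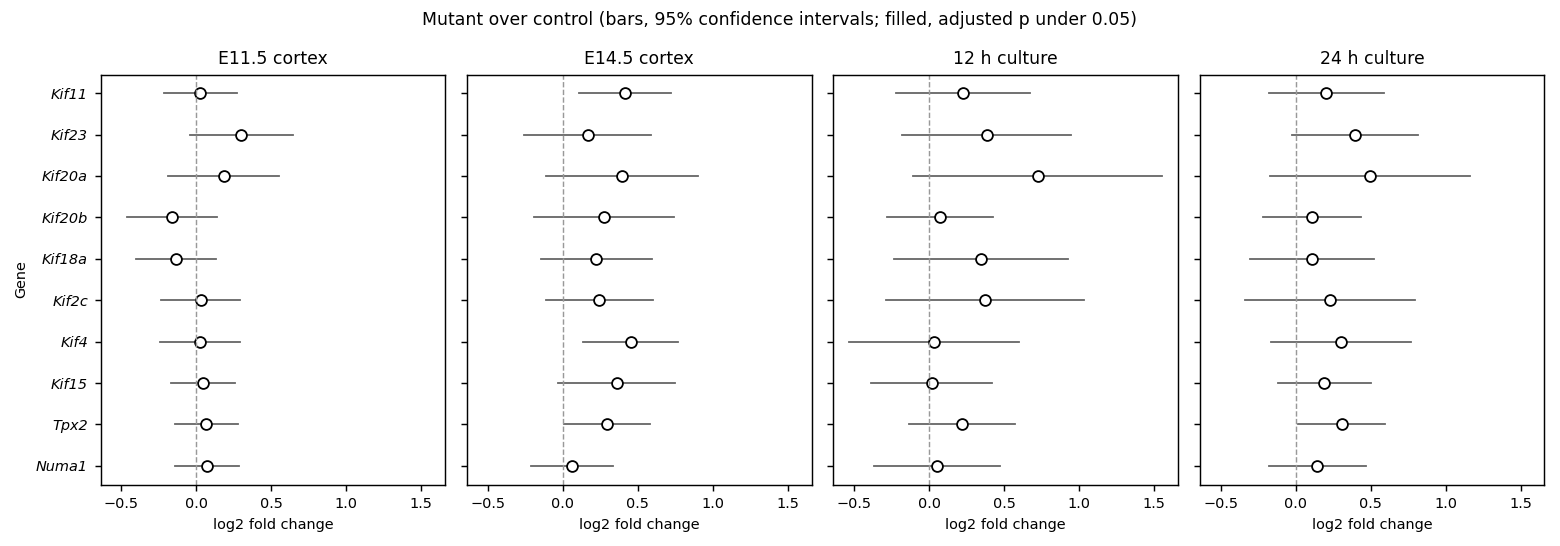
Log2 fold changes of mutant over control (horizontal axes) for the 10 genes (vertical axis) at each stage, with points for the estimates and bars for 95% confidence intervals. No point is filled, since no gene had an adjusted p under 0.05, and at E14.5 the intervals of *Kif11*, *Kif4* and *Tpx2* lie above 0.

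After 12 hours of culture 0 of the 10 genes passed the test between genotypes (limma, 0 with an unadjusted p under 0.05, 0 by edgeR and 0 by DESeq2), and the share over all genes with limma was 0%, and 4.85% at the unadjusted threshold. Estimates ran from 0.02 (*Kif15*) to 0.72 (*Kif20a*) on the log2 scale, with a median of 0.22 against -0.02 over all genes. *Kif20a* was at 37.8, 41.1 and 62.3 in controls 3, 4 and 5 and at 61.4, 82.1 and 88.7 in mutants 1, 2 and 6. Control 5 and mutant 1 overlapped, and the confidence interval of the fold, 0.93 to 2.94, was wide. *Tpx2* was the single gene of the 10 with mutants above all controls (746, 757 and 633 against 812, 905 and 769), against 5.09% of all genes. Erythroid markers summed to 106640 to 153171 in controls and 69448 to 108625 in mutants, and liver transcripts to 1921 to 4938 and to 5342 to 15877. Estimates were above 0 for 10 of 10 apical progenitor markers, 13 of 17 regulators of G2 and M phase and 2 of 10 neuron markers. The part of these differences in the spindle gene values was not tested. With a term for sex, *Kif4*, *Kif15*, *Numa1* and *Kif20b* turned below 0. Here too that term sets mutant 6, the only male mutant, alone against the male controls, and cannot show how far sex matters. The sign of these 4 was not settled at 12 hours.

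After 24 hours 0 of the 10 genes passed (limma, edgeR and DESeq2), against 0.271% of all genes with limma, and 1 of 10 had an unadjusted p under 0.05, against 10.6% of all genes, so that this count is no more than the background. That gene was *Tpx2*, at 529.8, 679 and 628 in controls and 752, 751 and 759 in mutants. The mutants sat close together and above all controls, with a fold of 1.24 (1.01 to 1.51, unadjusted p = 0.0390, adjusted p = 0.433). *Kif20a* was at 34.1, 33.7 and 36.3 in controls and at 54.5, 48.6 and 45.4 in mutants, *Kif23* at 136.5, 125 and 116 against 155, 154 and 189, and *Kif15* at 344, 364 and 373 against 385, 448 and 403. These 4 genes had all mutants above all controls, against 7.15% of all genes. The 24-hour libraries also differed in depth, with 4732781 to 5709443 reads in controls and 7903426 to 11645213 in mutants. *Gm42418* took 6.26% to 13.9% of the counts in controls and 20.5% to 23.0% in mutants, and liver transcripts summed to 769 to 3510 in controls and 5195 to 16501 in mutants. Apical progenitor markers summed to 9816 to 11195 in controls and 12503 to 13867 in mutants. Regulators of G2 and M phase had 14 of 17 estimates above 0, with 0 called. Markers of postmitotic neurons summed to 34659 to 39643 in controls and 27928 to 34391 in mutants, with 10 of 10 estimates below 0, 5 with an unadjusted p under 0.05 and *Neurod6*, a neuronal transcription factor, called lower (1.64-fold). With a term for the *Gm42418* share, *Kif11*, *Kif4* and *Numa1* turned below 0. That share did not overlap between the genotypes, so that such a term takes up much of the genotype difference. It cannot show how far *Gm42418* matters. The part of depth, liver transcripts, the markers and the regulators was not tested.

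With both cortical ages in one model, 0 of the 10 genes passed for genotype with limma, edgeR or DESeq2, against 0.139% of all genes with limma, and 3 of 10 had an unadjusted p under 0.05, against 8.71% of all genes. These were *Kif11* (1.16-fold, interval 1.01 to 1.34), *Tpx2* (1.13-fold, 1.01 to 1.27) and *Kif4* (1.18-fold, 1.01 to 1.37), with adjusted p-values of 0.516 to 0.522. The intervals of the 10 genes ran from 0.84-fold at the lowest bound to 1.51-fold at the highest. Of the 41 other spindle genes tested, 0 passed for genotype at any of these stages or in both cortices together. At an unadjusted p under 0.05, limma gave 0 of the 41 at E11.5, 6 at E14.5, 7 after 12 hours, 8 after 24 hours and 7 in both cortices. The shares of all genes at that threshold were 7.39%, 9.10%, 4.85%, 10.6% and 8.71%. The median log2 fold changes of the 41 genes were 0.02, 0.22, 0.14, 0.13 and 0.10 in the same order.

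Whether the genotype effect changed with age was tested by an interaction term, which 0 of the 10 genes passed (limma, edgeR and DESeq2), against 0% of all genes with limma. At an unadjusted p under 0.05 there were 2 of 10, against 7.84% of all genes. They were *Kif4* (mutant effect higher at E14.5 by 0.43 on the log2 scale, unadjusted p = 0.0322) and *Kif11* (by 0.39, unadjusted p = 0.0337), both with an adjusted p of 0.620. The confidence interval of *Numa1*, -0.31 to 0.30, was centred near 0. The step from cortex to 12 hours did not differ detectably between genotypes in any of the 10 genes (0 calls by limma, edgeR and DESeq2 and 0 unadjusted, against 0% of all genes with limma and 5.32% unadjusted). The step from 12 to 24 hours gave the same counts, 0 of 10, against 0% of all genes and 2.38% unadjusted. Taking the embryo as a block left these counts at 0.

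From cortex to 12 hours of culture, *Tpx2* and *Kif15* fell and the other 8 genes did not pass. That is 2 of 10 called lower, against 16.1% of all genes tested, and 0 of 10 with every culture below every cortex, against 7.76%. These counts are near the shares of all genes and do not set the 10 genes apart. *Tpx2* was at 833, 945, 956, 1126, 1004 and 1235 in the cortices of embryos 3, 4, 5, 1, 2 and 6 and at 746, 757, 633, 812, 905 and 769 in their 12-hour cultures. It was lower in 6 of 6 embryos and 1.32-fold lower in the model (log2 fold change -0.40, SE 0.09, adjusted p = 0.00462). *Kif15* went from 613, 576, 797, 797, 703 and 1060.2 to 489, 668, 499.5, 559.6, 599.8 and 503, lower in 5 of 6 embryos with control 4 as the exception. Its fold was 1.35 (log2 fold change -0.43, SE 0.13, adjusted p = 0.0223), but the adjusted p was 0.0533 without the cortex of control 5 and 0.0518 without that of mutant 6. Both calls held with the embryo as a block (adjusted p = 0.0136 for *Tpx2* and 0.0403 for *Kif15*).

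*Kif20a* was lower in 6 of 6 embryos after 12 hours and *Kif4* in 5 of 6, with log2 fold changes of -0.54 (adjusted p = 0.0589) and -0.42 (adjusted p = 0.0510), just outside the threshold. *Kif4* passed with a pseudocount of 5, a mean of at least 50 or quantile normalization, and without the cortex or the 12-hour culture of control 4. *Kif20a* passed without the 12-hour culture of control 5 or of mutant 6. Neither passed with edgeR or DESeq2, nor with the embryo as a block (adjusted p = 0.0667 for *Kif4* and 0.0640 for *Kif20a*). *Kif18a* had the highest estimate, 0.23, with 5 of 6 embryos higher in culture, and its adjusted p was 0.276. Of the 41 other spindle genes tested, 9 fell and 5 rose, where 16.1% of all genes tested were called lower and 14.1% higher. *Prc1*, which bundles midzone microtubules, fell 1.67-fold (adjusted p = 0.000230), *Ect2*, a cytokinesis factor, 1.93-fold (0.000900), and *Nusap1*, a microtubule bundler, 1.43-fold (0.000970), while *Kif24*, a ciliary kinesin, rose 2.61-fold (0.00260). Markers of cell types and of cycling cells changed at the same step. Of 10 apical progenitor markers 6 fell and 1 rose. The smallest p-values were those of *Hes5* (18.7-fold lower), *Vim* (1.84-fold higher), *Nes* (1.84-fold lower) and *Fabp7* (3.36-fold lower). The sum of the 10 markers was 9945 to 12163 in the cortices and 8696 to 12152 after 12 hours. Of 17 regulators of G2 and M phase 9 fell and 1 rose, and 3 of 5 markers of intermediate progenitors fell. Microglial markers summed to 431 to 986 in the cortices and to 6.31 to 44.0 after 12 hours, and endothelial markers to 1009 to 1161 and to 31.1 to 125. Markers of erythroid cells summed to 38256 to 45371 in the cortices and to 69448 to 153171 after 12 hours. Their part in the steps of *Tpx2* and *Kif15* was not tested.

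From 12 to 24 hours *Kif11* fell. It was at 368, 417, 294, 369.5, 479.8 and 408.5 in embryos 3, 4, 5, 1, 2 and 6 after 12 hours and at 179, 248, 202.5, 256.5, 233 and 230.5 after 24 hours. All 6 values at 24 hours lay below all 6 at 12 hours, and the fold was 1.72 (log2 fold change -0.78, SE 0.13, adjusted p = 0.00641). *Kif11* was the single gene called of the 10, against 0.142% of all genes called lower. Its call held under every alternative run (adjusted p = 2.01e-06 to 0.0281). At an unadjusted p under 0.05 limma gave 8 of 10, all lower, against 9.64% of all genes in either direction. In 3 of the 10 genes (*Kif11*, *Kif18a* and *Kif15*) every 24-hour culture was below every 12-hour culture, against 0.434% of all genes. At the same step 9 of 9 erythroid markers had estimates below 0, 9 an unadjusted p under 0.05 and 3 were called lower, and their sum was 69448 to 153171 after 12 hours and 45598 to 79430 after 24 hours. *Neurog2*, an intermediate progenitor marker, was called lower (1.70-fold), and 0 of 10 apical progenitor and 0 of 10 neuron markers were called in either direction, with 5 and 2 at an unadjusted p under 0.05. Of 17 regulators of G2 and M phase 1 was called lower with limma, *Top2a* (1.68-fold, adjusted p = 0.00453). Among the 17, 12 had estimates below 0 and 6 an unadjusted p under 0.05. The part of these markers and regulators in the step of *Kif11* was not tested.

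*Kif15* went from 489, 668, 499.5, 559.6, 599.8 and 503 to 344, 364, 373, 385, 448 and 403 in the same embryos, 1.43-fold lower, with an adjusted p of 0.0506 and an unadjusted p of 0.000169. Taking the embryo as a block, 3 of the 10 genes passed: *Kif11* (adjusted p = 0.00213), *Kif15* (0.0228) and *Kif4* (0.0408, 1.53-fold lower). The share of all genes called lower was then 0.374%. DESeq2 called 4 of the 10 (*Kif11*, *Kif15*, *Kif18a* and *Kif23*) and edgeR 2 (*Kif11* and *Kif15*). *Kif18a* was at 181, 236, 152, 175.5, 262 and 291 after 12 hours and at 119, 136.5, 134, 147, 134.6 and 138 after 24 hours, a 1.56-fold lower estimate (adjusted p = 0.108). *Tpx2*, lower in 6 of 6 embryos, had a log2 fold change of only -0.18 (adjusted p = 0.574), and *Numa1* one of -0.01 (adjusted p = 0.988) with 2 of 6 embryos lower. Of the 41 other spindle genes, 2 fell and 0 rose, where limma called 0.142% of all genes lower. They were *Nusap1* (1.55-fold, adjusted p = 0.00538) and *Spag5* (1.68-fold, adjusted p = 0.0448). At an unadjusted p under 0.05 limma gave 11 of 41, against 9.64% of all genes.

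Over the whole day in culture, 8 of the 10 genes were lower in 6 of 6 embryos than in the cortex of the same embryo. The exceptions were *Kif20b*, lower in 3 of 6 with a mean log2 change of -0.09, and *Numa1*, lower in 4 of 6 with a mean of -0.11. The widest mean changes were those of *Kif20a* (-1.05), *Kif4* (-1.04), *Kif15* (-0.95) and *Kif11* (-0.90). The cortex-to-24-hour change was described and not tested. The estimates before and after 12 hours were unequal in some genes. The 12-hour cultures enter both steps, so that a high 12-hour value makes the first fall smaller and the second larger. *Kif11* and *Kif18a* changed little before 12 hours in the model (-0.11 and 0.23) and more after it (-0.78 and -0.64), whereas *Tpx2* had -0.40 before and -0.18 after. Whether these steps differ between genes was not tested.

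**Figure D4:**
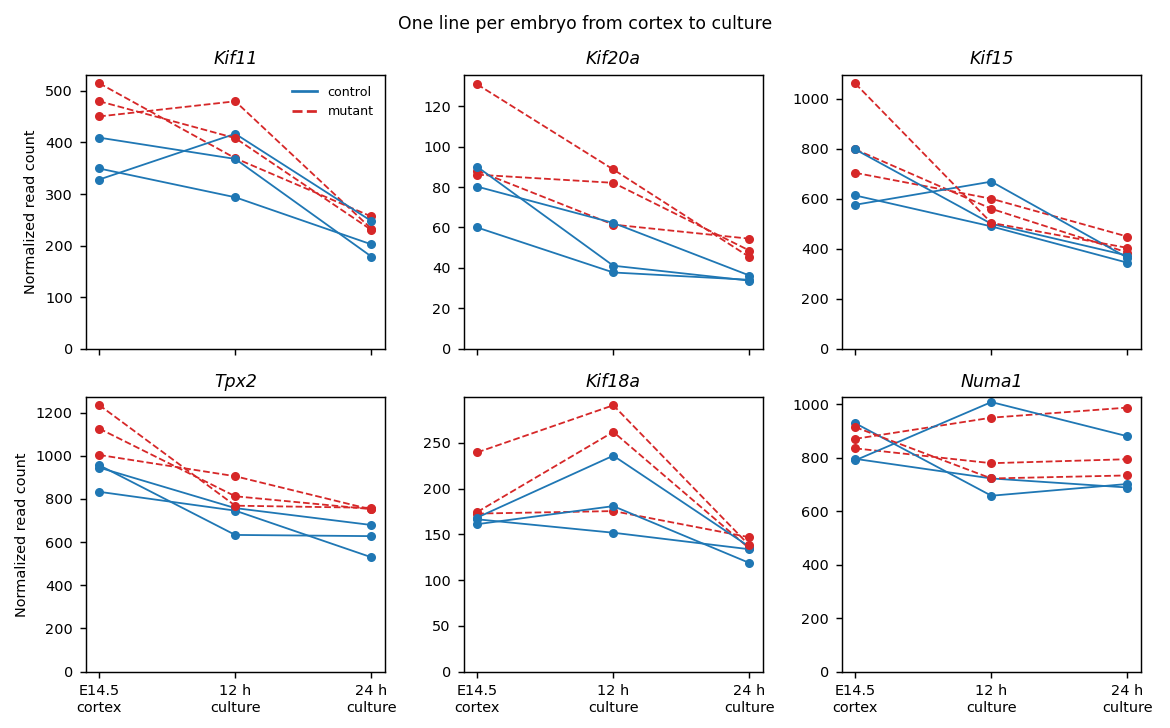
Normalized read counts (vertical axes, from 0) of 6 of the genes in the cortex and the 12-hour and 24-hour cultures of each E14.5 embryo (horizontal axes), with 1 line per embryo, solid blue for controls and dashed red for mutants. *Kif11* drops in all 6 embryos between 12 and 24 hours, *Tpx2* drops in all 6 between cortex and 12 hours, and *Numa1* shows no common course.

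Across the 24 libraries the 10 genes were alike. Pearson's r of the log2 values over the 45 pairs ran from 0.60 (*Kif20b* with *Numa1*) to 0.97 (*Kif15* with *Tpx2*), with a median of 0.85. *Kif15* had the highest median r with the other members of the set (0.93) and *Numa1* the lowest (0.65). Libraries of the same stage, and cultures of the same embryo, share much of this variation, so that these values describe the stages as much as the genes. Of 13668 genes considered, those most like the mean of the 10 included *Cenph* (r = 0.98), *Ncapg* (0.97), *Top2a* (0.97) and *Gins3* (0.97). *Cenph* encodes a kinetochore protein, *Ncapg* a condensin subunit, *Top2a* the topoisomerase that untangles sister chromatids, and *Gins3* a subunit of the replicative helicase.

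**Figure D5:**
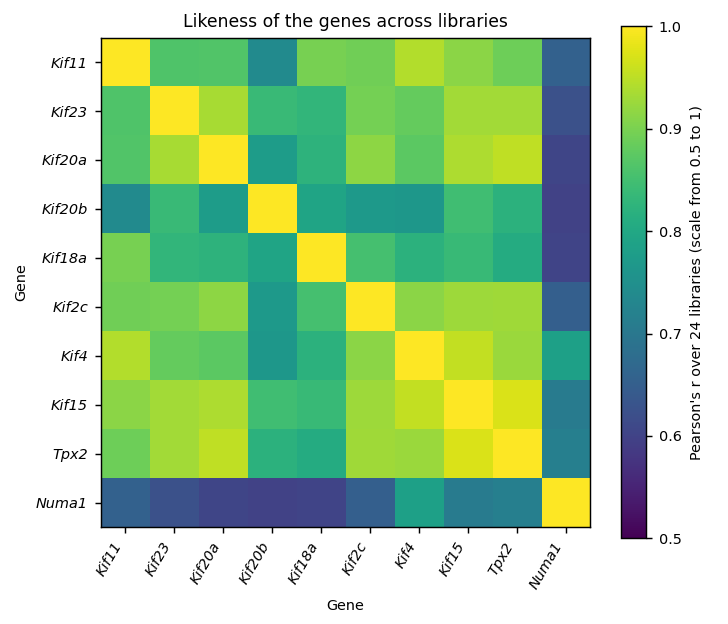
Pearson's r over 24 libraries for each pair of the 10 genes (both axes), on a colour scale from 0.5 to 1. The row of *Numa1* is the darkest, and *Kif15* and *Tpx2* form the brightest pair at 0.97.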

How the data were processed

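RNA of 24 libraries was primed with oligo(dT) and sequenced from 3′ ends. The authors checked reads with FastQC 0.11.7, aligned them to GRCm38 (TopHat 2.0.10, with Bowtie 1.0.0, and SAMtools at version 0.1.19), counted them by strand with HTSeq 0.6.1 on GENCODE genes and named DESeq2 for differential expression. What the authors deposited is signal, each library's read counts over its own size factor, with no replicates pooled. All 484666 values above 0 were whole multiples of 1 read (largest deviation 6.98e-09 reads), so edgeR 4.0.16 and DESeq2 1.42.0 could be run on whole reads. For E11.5 control D, where 1 read is worth nearly 1, this rests on the digits alone.

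Groups came from the sample labels. The main test was limma 3.58.1 (R 4.3.3) with an intensity trend on log2 of the value plus 1, run where a gene's mean over the compared libraries was 10 or more, two-sided, with Benjamini-Hochberg adjustment over all genes tested and a threshold of 0.05. Fold changes are on that scale and understate changes of low genes. The steps were run on simulated counts, with changes larger than any genotype estimate of the 10 genes and without libraries of the same embryo. That run does not show how smaller or paired changes are recovered. Deviations of the libraries of the same embryo correlated at -0.11 to 0.24 over 18 pairs (median 0.14, 12 above 0.1), and embryos were matched by their labelled numbers.

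The 10 genes and the gene lists were chosen with earlier results of these data known. Named beside them are, in each comparison, up to 5 called genes of a list with the smallest p, and the 5 genes most alike, except an item that is not reported here.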

Additional observations from a re-analysis of the deposited data

How the results depend on the processing

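The precision is that of 3 embryos per group, and reads of *Kif20a* fell to 20 in a library. Alternatives were quantile normalization, a pseudocount of 5, every gene read or those with a mean above 50 tested, an adjusted p under 0.1, edgeR, DESeq2, terms for sex, for the title prefix (E11.5) or for the *Gm42418* share (24 hours), the embryo as a replicate block, and leaving out each library in turn. *Kif20a* could not be tested where its mean was below 50. The cause of the changes listed was not tested.

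The counts of called genes among the 10 stayed at 0 for genotype and its interactions in all alternatives run. From cortex to 12 hours the count of 2 went to 4 at an adjusted p under 0.1, and to 1 to 3 with a library left out. It went to 3, by the call of *Kif4*, with a pseudocount of 5, a mean of at least 50 or quantile normalization. From 12 to 24 hours the count of 1 went to 2 with a pseudocount of 5, a mean of at least 50, an adjusted p under 0.1 or edgeR, to 4 with DESeq2 and to 3 with the embryo as a replicate block, and was 1 to 2 with a library left out, 2 without the 12-hour culture of mutant 6. The block changed no other count. Over all genes, limma called 2 at E11.5 (0 to 34 over the alternatives), 10 at E14.5 (1 to 74), 0 at 12 hours (0 to 182), 36 at 24 hours (0 to 182), 19 in both cortices (6 to 89) and 39 from 12 to 24 hours (19 to 148).

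None of the estimates that changed sign had passed a test. At E14.5 and in both cultures all controls and only mutant 6 among the mutants were male. The term for sex there leaves mutant 6 alone against the controls. With a term for sex the 12-hour genotype estimates became -0.00102 for *Kif20b*, -0.16 for *Kif4*, -0.12 for *Kif15* and -0.12 for *Numa1*, and the 24-hour ones -0.14 for *Kif2c* and -0.0355 for *Numa1*. With a term for the *Gm42418* share the 24-hour ones became -0.11 for *Kif11*, -0.0458 for *Kif4* and -0.16 for *Numa1*. The share did not overlap between the genotypes after 24 hours, so that this term cannot show how far *Gm42418* matters. Quantile normalization turned *Kif11* at E11.5 to -0.000296. With a library left out, genotype estimates ran at E11.5 from -0.0248 to 0.0753 for *Kif2c*, -0.0718 to 0.0751 for *Kif4* and -0.0484 to 0.0709 for *Kif11*, at 12 hours from -0.0634 to 0.16 for *Kif15*, -0.0722 to 0.24 for *Numa1* and -0.19 to 0.28 for *Kif4*, at 24 hours from -0.0173 to 0.25 for *Kif20b*, and in both cortices from -0.0482 to 0.13 for *Kif20b* and -0.0444 to 0.0918 for *Kif18a*. The 12-to-24-hour estimate of *Numa1* ran from -0.0710 to 0.0753.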

Other observations

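Kinesins outside mitosis were also measured. Of 22 genes for motors and light chains of axonal, ciliary and other intracellular transport, 21 were tested between the ages, and 13 rose and 4 fell from E11.5 to E14.5, with a median log2 fold change of 0.51. Of all genes tested, 23.8% were called higher and 29.3% lower. The smallest p-values belonged to motors of neurons that carry cargo along axons and dendrites. *Kif21b* rose 3.72-fold, *Kif5a* 3.14-fold, *Kif3c* 3.00-fold, *Kif5c* 1.96-fold and *Kifap3*, the adaptor of the *Kif3* motors, 1.81-fold. Their summed level was 13459 to 15895 in E11.5 cortices and 21397 to 24551 in E14.5 cortices. From cortex to 12 hours of culture 6 rose, among them *Kif5a* (1.55-fold) and *Kif3c* (1.42-fold), and 2 fell, *Kif26b* (3.18-fold) and *Kif1c* (1.89-fold), where 14.1% of all genes tested were called higher and 16.1% lower.

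For genotype 0 of these 21 genes passed at any stage (limma, with 0 at E11.5, 3 at E14.5, 3 after 12 hours and 4 after 24 hours at an unadjusted p under 0.05, against 7.39%, 9.10%, 4.85% and 10.6% of all genes). After 12 hours their summed level was 26729 to 28263 in controls and 22949 to 26047 in mutants, without overlap. After 24 hours it was 29648 to 31221 in controls and 25888 to 26870 in mutants, without overlap, and 17 of the 21 estimates were below 0. In the same libraries the 10 spindle genes had all 10 estimates above 0, against 48.3% of all genes, and 0 were called. The sign of several of these changed under the alternatives given above. In the same 24-hour libraries markers of postmitotic neurons had sums of 34659 to 39643 in controls and 27928 to 34391 in mutants, with 10 of 10 estimates below 0 and *Neurod6* called lower. Depth and the share of *Gm42418* differ between these groups too. The part of the neuron markers, depth and *Gm42418* was not tested.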
